A study of Mus musculus with 8 samples.

Results

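The genes described here are 10 regulators and stress factors of the ATF4 pathway: Atf4, Atf3, Atf5, Ddit3, Trib3, Chac1, Ppp1r15a, Cebpg, Nupr1 and Ddit4. They were taken by gene symbol from the 15358 genes of the deposited table, and all 10 were among the 14887 genes that passed the filter on low counts. RNA-seq had been done on whole ventricle of the hearts of mouse embryos (embryonic day 14.5). Control embryos were littermates with floxed alleles of Lem2 (Lem2 f/f; gene symbol Lemd2, a protein of the inner nuclear membrane). Conditional knockout (cKO) embryos carried the same floxed alleles and a Cre transgene labelled XMLC2V, whose promoter the labels do not spell out. Values were available for 3 control and 4 cKO libraries.

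ATF4 is a basic leucine zipper transcription factor and the main effector of the integrated stress response. Kinases that sense unfolded protein, missing amino acids, double-stranded RNA or a lack of heme phosphorylate the initiation factor eIF2, which lowers translation in general and raises that of Atf4 mRNA. ATF4 then binds DNA as a dimer with C/EBP factors and switches on genes for amino acid supply, further stress factors and its own feedback inhibitors. Because much of this control acts on translation, the mRNA level of Atf4 does not report the level of its protein.

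Some of these genes carry sequence motifs of the pathway next to their start. Promoter windows from RefSeq (build GRCm38.p6, 250 bases before the first transcribed base and 50 from it on) were found for all 10 genes, in 11 windows, since Atf5 has more than one start. Each was searched on both strands for TGATGNAA, the core of the composite site of ATF4 with C/EBP factors, for TGACGTCA, the cyclic AMP response element that ATF and CREB factors bind, and for the type II endoplasmic reticulum stress response element. Windows of 4 genes, Chac1, Atf3, Trib3 and Nupr1, held TGATGNAA, which is in 3.97% of all 32851 windows. That of Ppp1r15a held TGACGTCA, which is in 1.79% of all windows. The stress response element, in 0.0365% of all windows, was in 0 of these. No bases belonged to matches of different motifs. A match is a description of the letters, not a site, and a window without one lacks only these letters. The 5 windows with a match are shown 5′ to 3′ on the strand of the gene, to let the genes that hold a motif be set beside their values, and capitals mark the match.
Chac1, chr2:119350992-119351291, plus strand: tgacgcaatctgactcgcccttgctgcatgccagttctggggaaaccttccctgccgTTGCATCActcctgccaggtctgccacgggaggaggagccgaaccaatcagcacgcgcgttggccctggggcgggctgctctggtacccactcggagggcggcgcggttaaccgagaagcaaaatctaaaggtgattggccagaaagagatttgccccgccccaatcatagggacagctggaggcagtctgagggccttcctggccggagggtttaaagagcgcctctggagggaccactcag
Atf3, chr1:191183284-191183583, minus strand: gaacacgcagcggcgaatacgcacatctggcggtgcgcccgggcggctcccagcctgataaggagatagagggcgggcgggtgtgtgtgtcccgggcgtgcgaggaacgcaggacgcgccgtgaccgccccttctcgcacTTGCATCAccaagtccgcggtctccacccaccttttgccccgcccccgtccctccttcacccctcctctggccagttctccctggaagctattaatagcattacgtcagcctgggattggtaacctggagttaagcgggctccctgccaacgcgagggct
Trib3, chr2:152344011-152344310, minus strand: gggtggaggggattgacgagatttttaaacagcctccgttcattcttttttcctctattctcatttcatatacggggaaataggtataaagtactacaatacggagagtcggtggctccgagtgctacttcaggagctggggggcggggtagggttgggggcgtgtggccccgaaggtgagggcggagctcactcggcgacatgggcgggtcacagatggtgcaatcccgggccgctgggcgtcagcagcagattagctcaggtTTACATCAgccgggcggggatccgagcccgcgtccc
Nupr1, chr7:126625421-126625720, minus strand: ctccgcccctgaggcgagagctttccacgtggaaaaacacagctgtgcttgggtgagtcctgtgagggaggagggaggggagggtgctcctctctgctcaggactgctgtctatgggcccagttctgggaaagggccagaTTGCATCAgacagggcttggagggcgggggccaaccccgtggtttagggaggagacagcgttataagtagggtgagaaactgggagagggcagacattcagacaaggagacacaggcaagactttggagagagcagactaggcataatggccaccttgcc
Ppp1r15a, chr7:45526219-45526518, minus strand: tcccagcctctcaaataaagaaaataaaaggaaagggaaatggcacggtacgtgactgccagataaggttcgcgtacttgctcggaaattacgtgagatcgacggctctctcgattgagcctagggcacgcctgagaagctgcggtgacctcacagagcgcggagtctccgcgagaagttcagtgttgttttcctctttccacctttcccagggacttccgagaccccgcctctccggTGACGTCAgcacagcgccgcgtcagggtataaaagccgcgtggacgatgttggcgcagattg
In Chac1, Atf3 and Nupr1 the match read TTGCATCA on the strand of the gene, the reverse complement of the motif, and lay 185, 102 and 102 bases before the first transcribed base. In Trib3 it read TTACATCA and began 14 bases after the RefSeq start, which lies upstream of the start in GENCODE M21. The match in Ppp1r15a, a palindrome, ended 4 bases before the first transcribed base.

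Library totals lay between 28921922 and 39351262 estimated counts. Lemd2, the targeted gene, was at 35.9 ± 1.28 CPM (counts relative to library size, scaled by TMM; SD, n = 3) in control and at 16.4 ± 2.01 CPM (SD, n = 4) in cKO ventricle, with a log2 fold change of -1.13 (SE 0.086, adjusted p = 0.00135 by edgeR). It was called in 17 of 17 alternatives. All 12 cardiomyocyte markers were detected in each library. Xist marked cKO replicates 3 and 4 as female (1324 and 1102 CPM, against at most 0.504 elsewhere), so the controls held no female library. The titles carry a code, F169 or F191, that the labels do not explain, and F191 holds 1 library of each group. The labels name no litter, so the p-values describe the spread between these libraries only. In whole tissue, more RNA per cell and more cells of a type cannot be told apart.

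As a group the 10 genes were mostly a little higher in cKO ventricle, but none passed the adjusted test of edgeR. Its quasi-likelihood F-test, with p-values adjusted after Benjamini and Hochberg over all genes tested, called 0 of the 10 in either direction at 0.05, beside 1.09% of all genes, and limma-voom also called 0. At an unadjusted p under 0.05, 5 of the 10 were higher in cKO, against 9.4% of all genes: Chac1, Ppp1r15a, Ddit3, Atf4 and Atf3. In the other direction there were 0, against 8.5% of all genes. DESeq2 called 4 of the 10, Chac1, Ppp1r15a, Ddit3 and Atf4, all higher, beside 4.68% of all genes with an adjusted p in either direction and 2.88% higher. In these 4 genes every cKO library was above every control library, a pattern found in 8.67% of all genes. The log2 fold change was above 0 for 8 of the 10 genes, against 47.9% of all genes, and its median was 0.236, against -0.006 over all genes tested. The genes were picked with earlier results of these data known, so the counts describe them and test nothing.

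**Figure D1:**
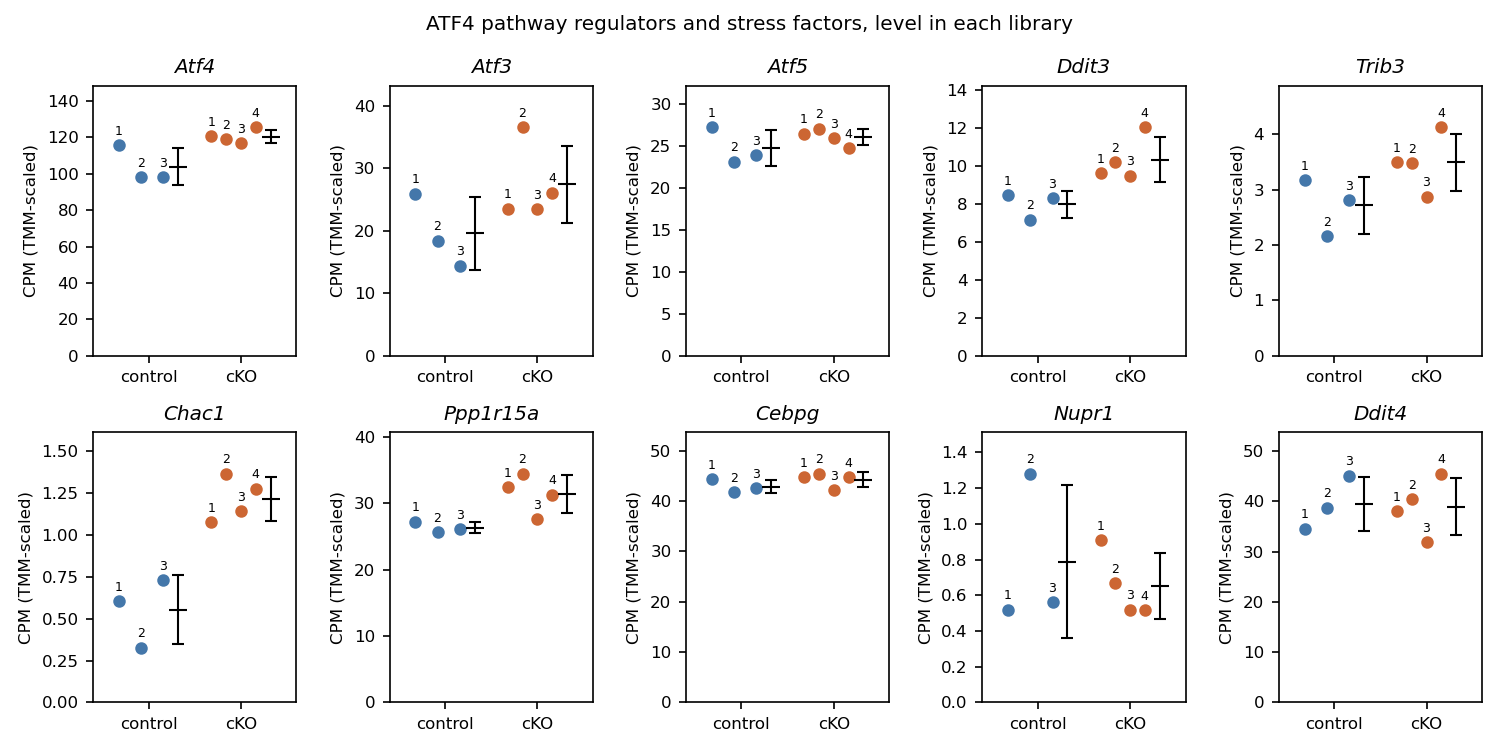
Level of each of the 10 genes in CPM (TMM-scaled, linear axis from 0) in the 3 control and 4 cKO libraries; digits are replicate numbers, and the bar beside each group is the mean ± SD. In Atf4, Ddit3, Chac1 and Ppp1r15a every cKO point lies above every control point, while the groups overlap in the other 6 genes.

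Atf4 itself (chromosome 15, 80255184 to 80257546, plus strand, mm10) read 115.7, 97.9 and 98.0 CPM in control replicates 1 to 3, and 120.5, 118.8, 116.6 and 125.5 CPM in cKO replicates 1 to 4. Every cKO library was above every control, but control replicate 1 was within 0.878 CPM of the lowest cKO library and the other controls were well below. The difference was small, a log2 fold change of 0.21 (SE 0.059, adjusted p = 0.109 by edgeR; 95% interval 0.08 to 0.35), or 1.16-fold. Without control replicate 1 it was 0.30 (adjusted p = 0.0322 by edgeR), where 0.199% of all genes were called higher, and with all libraries DESeq2 gave an adjusted p of 0.0281. Within F169 it was 0.15 (adjusted p = 0.367 by edgeR), and with upper-quartile scaling the groups overlapped. The deposited Atf4 values were not whole in 7 of 7 libraries, for a reason the sources used here do not state.

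Cebpg (chromosome 7, 35046422 to 35056567, minus strand) encodes C/EBPγ, a partner with which ATF4 forms dimers. Control libraries read 44.3, 41.7 and 42.6 CPM, and cKO libraries 44.7, 45.4, 42.1 and 44.7 CPM. The groups overlapped, since cKO replicate 3 lay below control replicates 1 and 3. At 0.05 (SE 0.041, adjusted p = 0.596 by edgeR), its log2 fold change had the narrowest 95% interval of the 10 genes, -0.05 to 0.14. It was 0.073 without control replicate 1 and 0.027 without control replicate 2. In GENCODE M21 the span of Cebpg shares 1140 bases with Gm44836 and 617 with Gm45094 on the same strand. It also shares 353 bases with Gm45095 on the opposite strand. All of these are absent from the deposited genes, and whether their reads entered the Cebpg counts was not tested.

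Ddit3 (chromosome 10, 127290793 to 127296289, plus strand) encodes CHOP, a factor that ATF4 induces and that promotes cell death under lasting endoplasmic reticulum stress. Control libraries read 8.47, 7.18 and 8.32 CPM, and cKO libraries 9.61, 10.2, 9.49 and 12.05 CPM. All cKO libraries were above all controls, and cKO replicate 4 was the highest. This amounted to a log2 fold change of 0.38 (SE 0.10, adjusted p = 0.107 by edgeR; 95% interval 0.14 to 0.61), with an adjusted p of 0.0479 in DESeq2. Ddit3 shares 69 bases with Mars, a methionyl-tRNA synthetase gene on the opposite strand and itself on the list of ATF4 targets. Mars was at 62.8 ± 2.41 CPM in control (SD, n = 3) and 69.9 ± 2.23 CPM in cKO (SD, n = 4), and because no source tells whether counting used strand, the Ddit3 counts are uncertain to that extent.

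Trib3 (chromosome 2, 152337425 to 152344061, minus strand) encodes a pseudokinase that ATF4 and CHOP induce and that in turn restrains ATF4. Control libraries read 3.17, 2.16 and 2.81 CPM, and cKO libraries 3.50, 3.48, 2.87 and 4.12 CPM. Of the 4 cKO libraries 3 lay above the highest control, and cKO replicate 3 lay among the controls. With 0.37 (SE 0.17, adjusted p = 0.286 by edgeR; 95% interval -0.01 to 0.75), its log2 fold change was close in size to that of Ddit3 but less certain, resting on 83 to 152 counts per library. It was 0.23 without control replicate 2 (adjusted p = 0.575 by edgeR).

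Chac1 (chromosome 2, 119351242 to 119354328, plus strand), an enzyme that degrades glutathione and a target of ATF4, had the largest log2 fold change of the 10, at a low level. The controls held 21, 13 and 26 counts, or 0.605, 0.327 and 0.731 CPM. The cKO libraries held 32, 51, 33 and 47 counts, or 1.08, 1.36, 1.14 and 1.28 CPM. All cKO libraries were above all controls, at 194% to 246% of the control mean, and control replicate 2 was the lowest of the 7. On the log2 scale the difference was 1.15 (SE 0.26, adjusted p = 0.0748 by edgeR; 95% interval 0.56 to 1.73), or 2.22-fold, and DESeq2 called it (adjusted p = 0.0284). Over the alternatives it ran from 0.865 without control replicate 2 to 1.40 without control replicate 3. Of the 17 alternatives only DESeq2 gave an adjusted p under 0.05.

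Ppp1r15a (chromosome 7, 45522917 to 45526269, minus strand) encodes GADD34, the subunit that directs protein phosphatase to eIF2 and so ends the stress response. The controls were close together at 27.2, 25.6 and 26.1 CPM. The cKO libraries read 32.4, 34.4, 27.6 and 31.3 CPM, all above the controls, with cKO replicate 3 nearest to them by 0.375 CPM. Its log2 fold change of 0.26 (SE 0.071, adjusted p = 0.106 by edgeR; 95% interval 0.10 to 0.42) was called by DESeq2 (adjusted p = 0.0355). Without the cKO libraries that express Xist it was 0.35 (SE 0.056; adjusted p = 0.0988 by edgeR). Ppp1r15a shares 716 bases with Tulp2 on the opposite strand, a gene that the low-count filter removed. Ppp1r15b, the constitutive relative with the same role, was at 113.0 ± 1.58 CPM in control ventricle and 119.1 ± 3.96 CPM in the cKO ventricle, with a log2 fold change of 0.08 (SE 0.034, adjusted p = 0.288 by edgeR).

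Atf3 (chromosome 1, 191170297 to 191183334, minus strand) encodes a stress-induced transcription factor, often a repressor, that also belongs to the early response to many stimuli. Control libraries read 25.9, 18.4 and 14.4 CPM, and cKO libraries 23.6, 36.6, 23.5 and 26.1 CPM. The groups overlapped, since control replicate 1 was above cKO replicates 1 and 3, and cKO replicate 2 stood above the rest. A log2 fold change of 0.49 (SE 0.20, adjusted p = 0.252 by edgeR; 95% interval 0.03 to 0.95) resulted. It was 0.74 without control replicate 1 (adjusted p = 0.141), 0.31 without control replicate 3 (adjusted p = 0.513) and 0.32 without cKO replicate 2 (adjusted p = 0.456), all by edgeR.

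Atf5 (chromosome 7, 44812256 to 44816659, minus strand) encodes a close relative of ATF4 that takes part in the mitochondrial stress response. Control libraries read 27.2, 23.1 and 23.9 CPM, and cKO libraries 26.5, 27.1, 25.9 and 24.7 CPM. Control replicate 1 was the highest of the 7. Atf5 had a log2 fold change of 0.07 (SE 0.064, adjusted p = 0.587 by edgeR; 95% interval -0.07 to 0.22). Without control replicate 1 the value was 0.15 (adjusted p = 0.266 by edgeR), and without control replicate 2 it was 0.026 (adjusted p = 0.901 by edgeR). Atf5 shares 572 bases with the nucleoporin gene Nup62 on the opposite strand, which was at 101.8 ± 2.03 CPM in control ventricle and 94.3 ± 2.22 CPM in the cKO ventricle, and its deposited values were not whole in 7 of 7 libraries, so its counts are uncertain.

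Nupr1 (chromosome 7, 126623246 to 126625471, minus strand), a small stress-induced chromatin protein, had few counts. The controls held 18, 51 and 20 counts (0.518, 1.28 and 0.562 CPM), and the cKO libraries 27, 25, 15 and 19 counts (0.907, 0.669, 0.519 and 0.516 CPM). Control replicate 2 was the highest, and the groups overlapped. It had a log2 fold change of -0.29 (SE 0.36, adjusted p = 0.715 by edgeR; 95% interval -1.10 to 0.51), and 0.26 without control replicate 2 (adjusted p = 0.747 by edgeR). Its window holds the same TTGCATCA as those of Chac1 and Atf3, while its estimate has the opposite sign and an interval that includes 0.

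Ddit4 (chromosome 10, 59949675 to 59951771, minus strand) encodes REDD1, an inhibitor of mTORC1 that ATF4, hypoxia and glucocorticoids induce. Control libraries read 34.6, 38.7 and 45.1 CPM, and cKO libraries 38.0, 40.4, 31.9 and 45.5 CPM. The groups covered nearly the same range, with the F191 library the highest in each. Ddit4 had a log2 fold change of -0.02 (SE 0.12, adjusted p = 0.958 by edgeR), and its 95% interval of -0.28 to 0.25 includes the value found for Atf4.

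**Figure D2:**
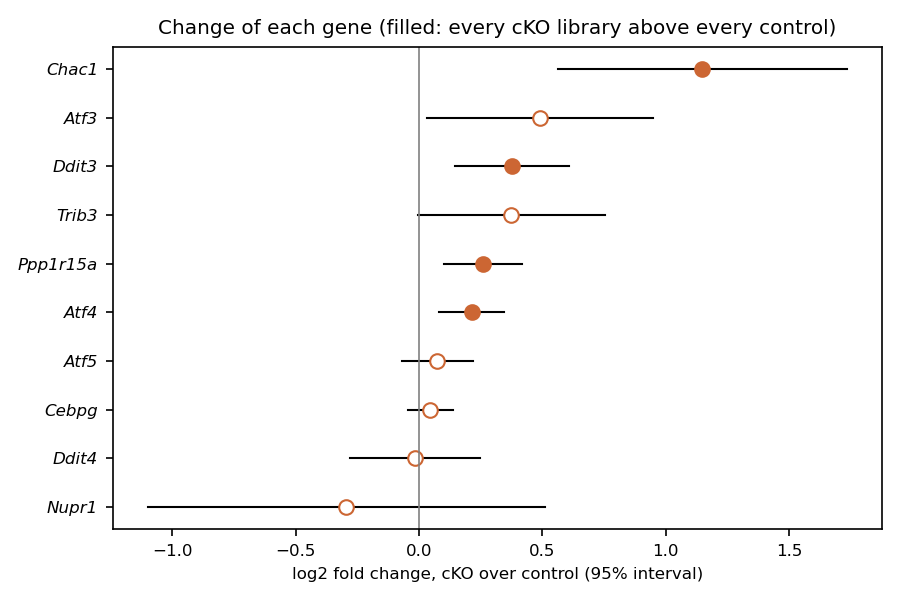
Log2 fold change of each gene, cKO over control, from edgeR (points) with its 95% interval (lines); filled points mark genes in which every cKO library was above every control library. The estimates run from -0.29 for Nupr1 to 1.15 for Chac1, and the intervals of Trib3, Atf5, Cebpg, Ddit4 and Nupr1 include 0.

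Per kilobase of all exons in GENCODE M21, Atf4 was the most abundant of the 10 in control ventricle, at 44.1 ± 4.35 CPM per kilobase (SD, n = 3). Ddit4 followed at 22.5 ± 3.015, Atf5 at 12.4 ± 1.09, Atf3 at 9.10 ± 2.71, Ppp1r15a at 8.96 ± 0.282 and Cebpg at 7.62 ± 0.240 CPM per kilobase. Ddit3 was at 4.66 ± 0.409 and Trib3 at 1.28 ± 0.240 CPM per kilobase. Chac1 (0.338 ± 0.126) and Nupr1 (0.313 ± 0.170) were the lowest. In GENCODE M21, however, Nupr1 and Atf3 reach beyond their deposited ends, to positions 126630861 and 191218039. Their lengths thus take in exons outside the deposited span, so their values per kilobase may be too low and their places are uncertain. The control ranges of Atf5 and Atf3, of Atf3 and Ppp1r15a, and of Chac1 and Nupr1 overlapped, and those of the other neighbours in this order did not. Chac1, with the largest relative difference, was at 0.742 CPM per kilobase in cKO ventricle, still below Trib3.

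Libraries ranked alike for many of the 10 genes. Control replicate 1 was the highest control for 7 of the 10, and control replicate 2 was the lowest control for 7. Among cKO libraries, replicate 2 was the highest for 5 genes and replicate 4 for 4, while replicate 3 was the lowest for 7. The share of all genes with these places was not computed, so whether the order is particular to these genes was not tested. Without control replicate 1, 7 of the 10 genes had every cKO library above every control (13.5% of all genes), with Atf3, Atf5 and Trib3 joining the 4 named above. Without cKO replicate 3 there were 6 (10.8% of all genes), with Trib3 and Cebpg joining. Within F169 the same 4 genes kept the groups apart, where 16.3% of all genes did so. Without the cKO libraries that express Xist there were 6 (15.9% of all genes), and 5 of the 10 were higher at an unadjusted p under 0.05, against 6.56% of all genes.

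**Figure D3:**
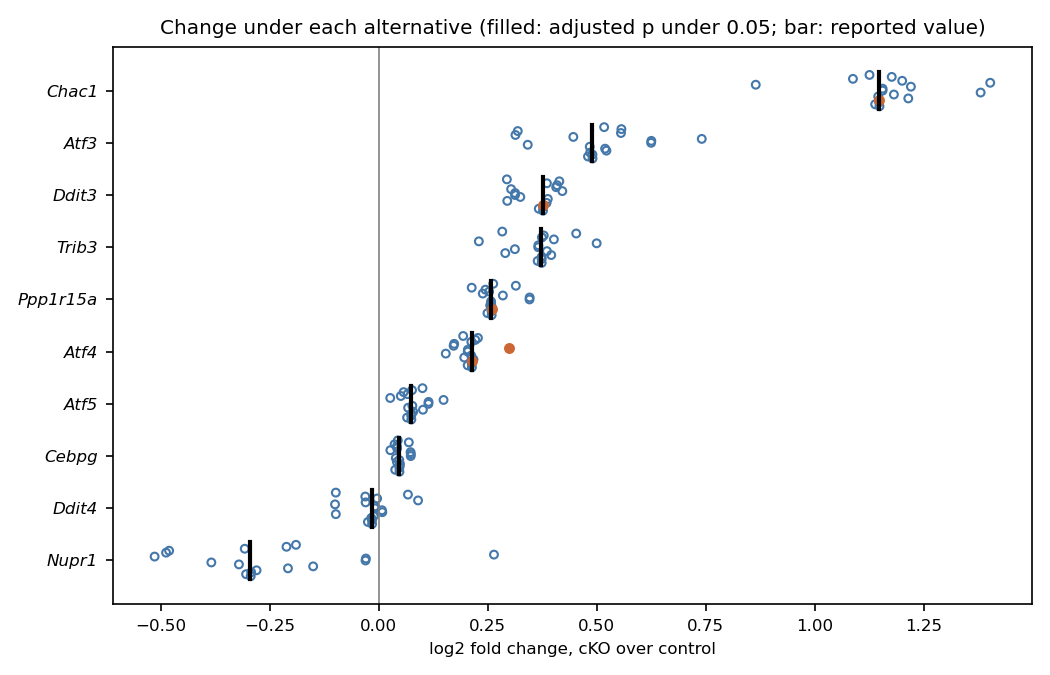
Log2 fold change of each gene under each of 17 alternative settings (circles; filled where the adjusted p was under 0.05), with the reported value as a bar. Chac1, Atf3, Ddit3, Trib3, Ppp1r15a, Atf4, Atf5 and Cebpg stay above 0 in all 17 settings, while Ddit4 and Nupr1 cross 0, and the called values are those of DESeq2 and, for Atf4, the one without control replicate 1.

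Upstream of ATF4, a list of 25 tested genes held the eIF2 kinases, the eIF2 and eIF2B subunits, the phosphatase factors and other genes listed with them. Of these 25, edgeR called 0 in either direction. At an unadjusted p under 0.05, 7 of the 25 were higher and 1 lower, against 9.4% and 8.5% of all genes. Limma-voom called 0, and DESeq2 called Eif2s1 and Dnajc3, both higher, where it called 2.88% of all genes higher. The median log2 fold change was 0.0662. Eif2s1, the subunit that is phosphorylated, was at 101.6 ± 1.81 CPM in control ventricle and 113.6 ± 2.75 CPM in the cKO ventricle. It was called in 3 of 17 alternatives: DESeq2 (adjusted p = 0.00438), and edgeR with DESeq2 size factors (0.0495) or a term for the F code (0.0486). In the reported fit it had the smallest p of the list (log2 0.16, SE 0.032, adjusted p = 0.0534 by edgeR). The next were Dnajc3, a co-chaperone that inhibits eIF2 kinases (log2 0.19, SE 0.055, adjusted p = 0.113), Eif2ak2, the kinase that senses double-stranded RNA (log2 0.17, SE 0.050, adjusted p = 0.131), and Impact, an inhibitor of the amino acid sensor (log2 0.15, SE 0.046, adjusted p = 0.134), all by edgeR. The kinases of unfolded protein (Eif2ak3, log2 0.02, SE 0.055), of amino acid shortage (Eif2ak4, 0.04, SE 0.043) and of heme shortage (Eif2ak1, 0.04, SE 0.042) differed by about their SE or less. Leaving out control replicate 2 or 3 moved Eif2ak1 to 0.077 or 0.014, and leaving out control replicate 3 moved Eif2ak4 to 0.0076. Eif2s3x, an X-linked eIF2 subunit gene chosen after its values were seen, was 1 of the 7 genes higher at an unadjusted p under 0.05. It was at 203.1 to 224.0 CPM in the male libraries. In cKO replicates 3 and 4 it reached 346.8 and 336.5 CPM, where its Y-linked copy Eif2s3y was at 0 and 0.0271 CPM.

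Among other ATF, CREB and C/EBP factors, edgeR called 1 of 24 higher and 0 lower, against 0.766% and 0.322% of all genes. DESeq2 called 4 higher (2.88% of all genes) and 0 lower, and at an unadjusted p under 0.05 there were 6 higher and 1 lower (9.4% and 8.5% of all genes). Their median log2 fold change was 0.0607. The called gene was Jdp2, a repressor of AP-1 that can bind the cyclic AMP response element, as ATF3 does. Control libraries read 8.70, 8.49 and 8.15 CPM, and cKO libraries 10.99, 10.9, 11.1 and 11.4 CPM. The groups did not overlap, and Jdp2 rose by 0.40 (SE 0.063, adjusted p = 0.0250 by edgeR) on the log2 scale. That call was lost on leaving out any 1 library but cKO replicate 1 (adjusted p up to 0.0956), within F169 (0.151), with a Y-linked term (0.144) and without the cKO libraries that express Xist (0.186). Cebpb, a partner of ATF4 and CHOP named after its values were seen, was at 8.38 ± 0.609 CPM in control ventricle and 11.5 ± 1.496 CPM in the cKO ventricle (log2 0.47, SE 0.11, adjusted p = 0.0750 by edgeR), with every cKO library above every control. Of 10 genes for turnover and co-regulation of ATF4, edgeR called 1 lower and 0 higher, against 0.322% and 0.766% of all genes. DESeq2 also called 1 lower and 0 higher, beside 4.68% of all genes in either direction. At an unadjusted p under 0.05, 3 were lower and 1 higher, against 8.5% and 9.4% of all genes. The gene that both tools called was Usp11, a deubiquitinase (log2 -0.25, SE 0.048, adjusted p = 0.0473 by edgeR). It was at 77.0 ± 2.68 CPM in control ventricle and 64.8 ± 3.62 CPM in the cKO ventricle. The Usp11 call was lost on leaving out any 1 library but cKO replicate 1 (adjusted p up to 0.16), within F169 (0.207), with a Y-linked term (0.206) and without the cKO libraries that express Xist (0.247), all by edgeR.

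Of 40 tested ATF4 target genes, edgeR called 5 higher and 0 lower (0.766% and 0.322% of all genes). DESeq2 called 9 higher (2.88% of all genes) and 1 lower, beside 4.68% of all genes in either direction. The target that DESeq2 called lower was Aldh1l2 (log2 -0.27, SE 0.059, adjusted p = 0.0686 by edgeR). Its level in every cKO library was below that in every control, a pattern found in 8.28% of all genes. At an unadjusted p under 0.05, 17 of the 40 were higher and 1 lower, against 9.4% and 8.5% of all genes. The median log2 fold change was 0.105. The list was written with earlier results of these data known. The called genes were Jdp2, Gdf15, the one-carbon enzyme Mthfd2 (log2 0.38, SE 0.063, adjusted p = 0.0304), the serine synthesis enzyme Psat1 (log2 0.30, SE 0.057, adjusted p = 0.0443) and the alanyl-tRNA synthetase Aars (log2 0.20, SE 0.039, adjusted p = 0.0473), all by edgeR. Gdf15, a secreted stress cytokine that p53 also induces, read 1.64, 0.879 and 0.702 CPM in the control libraries and 2.92, 3.80, 3.57 and 4.37 CPM in the cKO libraries. Like Chac1 it had a low control level and groups that did not overlap, and it rose by 1.78 (SE 0.27, adjusted p = 0.0230 by edgeR) on the log2 scale. Asns, the asparagine synthetase, was at 19.4 ± 0.473 CPM in control ventricle and 22.6 ± 1.40 CPM in the cKO ventricle (log2 0.22, SE 0.058, adjusted p = 0.0999 by edgeR). Sesn2, an inhibitor of mTORC1 signalling as Ddit4 is, had a log2 value of 0.21 (SE 0.12, adjusted p = 0.403) and Eif4ebp1, a translation repressor, of -0.01 (SE 0.062, adjusted p = 0.941), both by edgeR. Sesn2 ranged from 0.13 without control replicate 2 to 0.33 without control replicate 3. The number of called targets was 0 within F169, without the cKO libraries that express Xist, and without control replicate 2 or 3 or cKO replicate 2 or 3, and it was 1 without control replicate 1 or cKO replicate 4.

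A list of 14 genes held relatives of the stress factors and also Tsc1, Tsc2, Rheb and Txnip, which are not relatives. EdgeR called 0 of the 14 higher and 1 lower (0.766% and 0.322% of all genes). DESeq2 called 1 higher (2.88% of all genes) and 1 lower, beside 4.68% of all genes in either direction. The higher one was Txnip, named after its values were seen (log2 0.55, SE 0.13, adjusted p = 0.0844 by edgeR). At an unadjusted p under 0.05, 1 of the 14 was higher and 1 lower, near the 9.4% and 8.5% of all genes. Trib2, a pseudokinase of the same family as Trib3, read 143.6, 145.1 and 144.4 CPM in control and 125.7, 127.4, 126.2 and 133.3 CPM in cKO libraries. Every cKO library was below every control (8.28% of all genes), and Trib2 fell, with a log2 fold change of -0.17 (SE 0.032, adjusted p = 0.0428 by edgeR). That call was lost on leaving out any 1 library but cKO replicate 4 (adjusted p up to 0.135), within F169 (0.119), with a Y-linked term (0.154) and without the cKO libraries that express Xist (0.155). The difference between Trib2 and Trib3 was not tested.

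**Figure D4:**
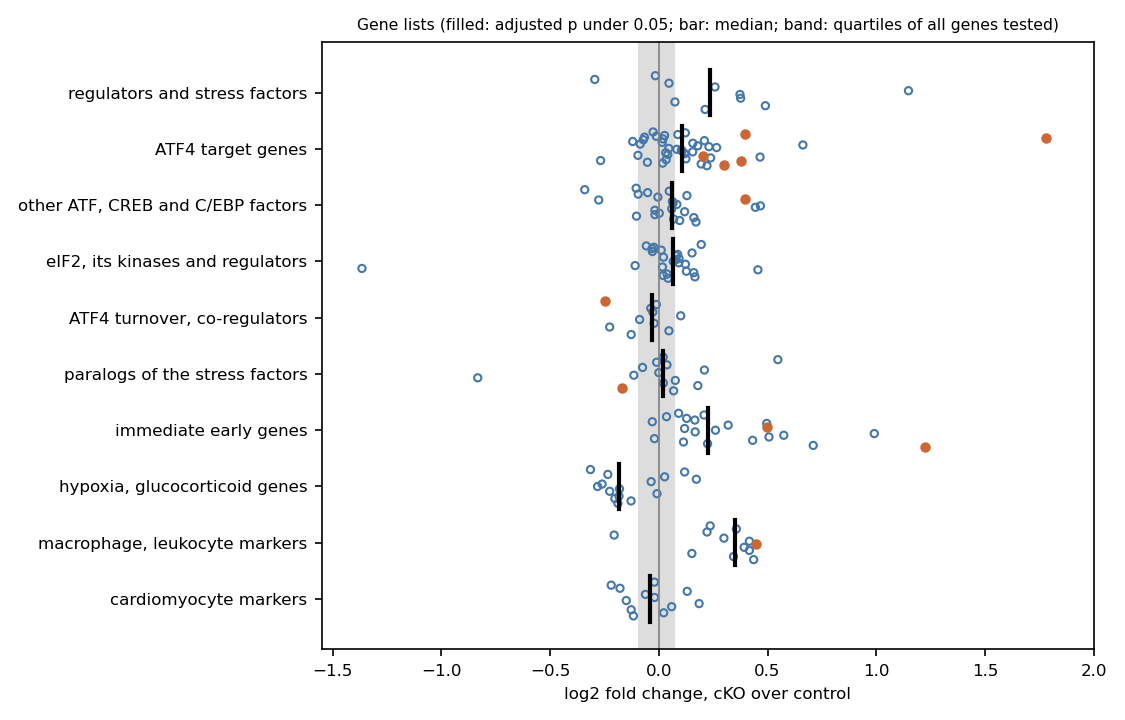
Log2 fold change, cKO over control, of every tested gene (circles) in 10 gene lists, with the list median as a bar, the quartiles of all genes as a grey band, and filled circles where the adjusted p was under 0.05. The medians of the stress factors (0.236), ATF4 targets (0.105), immediate early genes (0.224) and macrophage markers (0.350) lie right of the band, and that of the hypoxia and glucocorticoid genes (-0.184) lies left of it. The row of paralogs also holds Tsc1, Tsc2, Rheb and Txnip, which are not paralogs.

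Some genes of other responses and cell types differed beside these. Of 21 immediate early genes, which like Atf3 and Ppp1r15a respond quickly to many stimuli, 19 had values above 0 (47.9% of all genes) and 12 were higher at an unadjusted p under 0.05 (9.4% of all genes). DESeq2 called 5 of them higher, Fos, Zfp36, Btg2, Egr3 and Junb, where it called 2.88% of all genes higher. Called by edgeR were Fos (log2 1.23, SE 0.13, adjusted p = 0.00534), a call lost within F169 (adjusted p = 0.0638 by edgeR), and Zfp36 (log2 0.50, SE 0.098, adjusted p = 0.0491), a call lost on leaving out any 1 library (adjusted p up to 0.126 by edgeR), within F169 (0.0853) and without the cKO libraries that express Xist (0.189). Egr1 had a log2 value of 0.51 (SE 0.19, adjusted p = 0.201) and Jun of 0.11 (SE 0.082, adjusted p = 0.506), both by edgeR, and Jun was at 0.037 without cKO replicate 2. The summed level of this list was 823.2 to 891.3 CPM in control and 867.4 to 1011 CPM in cKO libraries. Replicate 2 was highest and replicate 3 lowest among the cKO libraries, as for Ppp1r15a, Atf3 and Cebpg. For Atf3, replicate 3 was barely below replicate 1 (23.47 and 23.56 CPM), and replicate 3 was the lowest cKO library for 7 of the 10 genes.

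The 12 macrophage and leukocyte markers summed to 142.4 to 145.9 CPM in control and 159.3 to 173.8 CPM in cKO libraries, with 11 of 12 above 0 (47.9% of all genes) and none at 0. At an unadjusted p under 0.05, 10 of them were higher and 1 lower (9.4% and 8.5% of all genes). EdgeR called 1 higher (0.766% of all genes), and DESeq2 called C1qb and C1qc higher (2.88% of all genes). Among them C1qb, a complement gene, was called (log2 0.45, SE 0.082, adjusted p = 0.0425 by edgeR), a call kept in 7 of 17 alternatives and lost on leaving out any 1 library but control replicate 3 (adjusted p up to 0.115) and without the cKO libraries that express Xist (0.238). The lower one was Mrc1, a macrophage mannose receptor named after its values were seen, with every cKO library below every control (log2 -0.21, SE 0.051, adjusted p = 0.0895 by edgeR). The summed level of 10 endothelial and endocardial markers did not overlap either, at 1656 to 1756 CPM in control and 1777 to 1848 CPM in cKO libraries. Of these markers 7 had values above 0 (47.9% of all genes) and 3 below, with a median log2 fold change of 0.0429. EdgeR and limma-voom called 0 of these 10, and 4 were higher and 0 lower at an unadjusted p under 0.05 (9.4% and 8.5% of all genes). DESeq2 called Npr3, a natriuretic peptide receptor (log2 0.29, SE 0.077, adjusted p = 0.100 by edgeR), where it called 2.88% of all genes higher. Npr3 alone was at 212.4 ± 4.56 CPM in control (SD, n = 3) and 259.8 ± 28.5 CPM in cKO ventricle (SD, n = 4). The difference of its means is wider than the gap between the summed ranges. All 11 red cell markers had values below 0 (median log2 -0.294), while 47.9% of all genes were above 0. Their summed levels overlapped (1989 to 3757 CPM in control and 2467 to 2705 CPM in cKO libraries). Of them 0 were called by edgeR, DESeq2 or limma-voom, and 1 was lower at an unadjusted p under 0.05 (8.5% of all genes). Of the 12 cardiomyocyte markers, 4 had values above 0 and 8 below. EdgeR called 0 of these 12, and DESeq2 called Ryr2 lower (4.68% of all genes in either direction). Of 11 epicardial and fibroblast markers, 2 had values above 0 and 9 below (median log2 -0.0455). EdgeR, DESeq2 and limma-voom called 0 of these 11, and 0 had an unadjusted p under 0.05 (17.9% of all genes). The part of these cell types, and of the early response, in the values of the stress factors was not tested.

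Of 15 hypoxia and glucocorticoid response genes, 3 had values above 0 (47.9% of all genes) and 12 below, and edgeR and limma-voom called 0. At an unadjusted p under 0.05, 1 was higher and 3 lower (9.4% and 8.5% of all genes). DESeq2 called 0 higher and 1 lower, beside 4.68% of all genes in either direction. That gene was Pdk1, the pyruvate dehydrogenase kinase that hypoxia induces (log2 -0.20, SE 0.048, adjusted p = 0.0803 by edgeR and 0.00284 by DESeq2). Next by p were Tsc22d3, a glucocorticoid-induced leucine zipper gene (log2 0.17, SE 0.064, adjusted p = 0.205), Klf9, a glucocorticoid-induced zinc finger factor (log2 -0.31, SE 0.12, adjusted p = 0.211), and Bnip3, a mitophagy receptor that hypoxia induces (log2 -0.18, SE 0.080, adjusted p = 0.272), all by edgeR. Without control replicate 3 these were 0.26, -0.19 and -0.11. As for Ddit4, the summed level of this list was highest in the F191 library of each group and lowest in cKO replicate 3.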

How the data were processed

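Per the file headers and labels, the deposited values are estimated counts per gene, listed beside its symbol, coordinates and strand. The submitters' processing notes name STAR (2.4.2a), HTSeq (0.6.1) and mm10, without role or order, and the library kit was directional, per the labels' protocols. As 30.3% of the values were not whole, they were rounded. Columns were matched to samples by the code in the titles. The 1 other column equalled the sum of the 7 libraries in 15358 of 15358 genes (tolerance 1e-06 counts) and was not used, so control replicate 4 of the 4 labelled was not analysed here.

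All genes were tested together in edgeR 4.0.16 (R 4.3.3): filterByExpr (minimum count 10; 14887 kept, 471 removed), TMM and the quasi-likelihood F-test, with Benjamini-Hochberg adjustment and a threshold of 0.05. SE is the size of the log2 fold change over the root of F, and 95% intervals use the t quantile. Totals were 28921922 to 39351262 counts. Alternatives were other size factors, no filter, DESeq2 1.42.0, limma 3.58.1 (voom), the replicate block, the F code, Y-linked expression, and libraries left out. The test was checked on simulated counts. Same-numbered libraries did not deviate together (r across genes of 0.0386, -0.0751 and -0.0791). The highest r, 0.224, was that of control replicate 3 with cKO replicate 4, the libraries coded F191.

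The 10 genes and the lists were chosen with earlier results of these data known. Named are all 10, Lemd2, and of each pathway list the called genes or else up to 4 with the smallest p, plus a fixed set (Fos, Egr1, Jun, Asns, Sesn2, Eif4ebp1, the eIF2 kinases). Ppp1r15b, overlapping genes, some genes that DESeq2 called and those said so were added. Positions are as deposited (mm10), and on the minus strand the stop lies 1 base beyond the RefSeq start in 7 of 7 genes. Exon lengths and overlaps are from GENCODE M21 (GRCm38).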

Additional observations from a re-analysis of the deposited data

How the results depend on the processing

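Of the 10 genes, DESeq2 called 4 higher, and leaving out single libraries gave 0 to 1 (Atf4, without control replicate 1); the other edgeR and limma-voom fits called 0, and no fit called any lower. ATF4 targets called higher numbered 9 in DESeq2 and 0 under the replicate block, F169 alone, a Y-linked term or removal of the libraries expressing Xist, and 0 to 6 over left-out libraries; DESeq2 called 1 lower. Over all genes, where 162 were called, DESeq2 called 629 (1447 had no adjusted p), the replicate block 13, F169 alone 20, a Y-linked term 20, removal of the libraries expressing Xist 17, and left-out libraries 28 to 133. With a term for the F code 214 were called. The replicate numbers do not pair the libraries. Of the 10 genes, those with groups apart numbered 3 with upper-quartile factors (7.83% of all genes). Over single left-out libraries they numbered 4 to 7 (10.4% to 13.5% of all genes). This count was chosen after seeing the data. Estimates changed sign for 4 genes that were not called: over left-out libraries Nupr1 ran from -0.5144 to 0.2643, Ddit4 from -0.1004 to 0.09012, Eif4ebp1 from -0.05125 to 0.04135 and Eif2ak3 from -0.00666 to 0.07354, and Ddit4 was 0.00809 with a term for the F code, against 0.007352 in F169 alone. The cause was not tested. Chac1 and Nupr1 rest on 13 to 51 counts a library, which limits what their values can show.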
